A study of Mus musculus with 8 samples.

Results

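The genes described here encode the neuronal intermediate filaments: Nefl, Nefm and Nefh for the light, medium and heavy neurofilament chains, Ina for alpha-internexin and Prph for peripherin. They were taken by symbol from the rows of the deposited nucleus-by-gene matrix, and all 5 were found among its 19787 genes. The nuclei came from wild type mice of the C57BL/6 strain, from the cord at low thoracic level, and had been profiled by droplet-based (10x v3) single-nucleus RNA sequencing, which counts unique molecular identifiers (UMIs, 1 per captured RNA molecule) in each nucleus. The 8 libraries came from 3 experiments and held 12447 nuclei, of which 4076 were annotated as neurons. Experiment 1 used uninjured mice. It gave 2 libraries of sorted nuclei carrying GFP, which marked neurons traced from their projection to the lumbar cord (traced). Its 2 libraries of nuclei without GFP (untraced) carry the same numbers in their titles. Whether such a number stands for 1 animal is not given in the labels. Experiment 2 gave 2 libraries after hemisection, a cut through one side of the cord followed by natural repair (hemisection), and 1 library of uninjured cord (uninjured of experiment 2). Experiment 3 gave 1 library of GFP-carrying nuclei of regenerating neurons (regenerating). The labels used here name neither ages nor times after injury. The traced and regenerating neurons are those sorted for the label, and the traced libraries also held some nuclei not annotated as neurons (80 neurons of 95 nuclei in traced 1 and 25 of 27 in traced 2), and GFP itself was not analysed here.

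Neurofilaments are ropes of protein that fill axons and set their calibre. The light chain forms the core, the medium and heavy chains carry long tails that are heavily phosphorylated in axons and project from the filament, and alpha-internexin co-assembles with them in the central nervous system. Peripherin is a related filament protein of motor neurons, sensory neurons and other neurons whose axons leave the cord, and large neurons with thick myelinated axons are known for high neurofilament levels.

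In build GRCm38 (GENCODE M21 annotation), Nefh lies on the minus strand at chr11:4938754-4948064, Prph on the plus strand at chr15:99055174-99058978 and Ina on the plus strand at chr19:47014698-47025327, all protein coding. Nefl and Nefm are neighbours on chromosome 14. Nefl lies on the plus strand at chr14:68083863-68089095, and the Nefm gene on the minus strand at chr14:68082590-68124846 spans it, because of 1 of its 2 annotated transcripts. The other Nefm transcript, at chr14:68119283-68124846, does not reach Nefl. The sources used here do not say whether the authors counted reads by strand, so reads from the shared stretch could be split between both genes in a way that cannot be told apart.

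Ina and Prph had opposite ranks in motor neurons, where Prph was highest and Ina lowest of 24 subtypes (values below). The RefSeq promoter table holds the 250 bases before the start of these 2 of the 5 genes. Both sequences are shown 5′ to 3′ on the plus strand of GRCm38.p6, for Prph at chr15:99054924-99055173 and for Ina at chr19:47014431-47014680. Capitals mark the motifs searched on both strands: the TATA box motif with the letters TATAAA, the GC box motif with GGGCGG, which reads as CCGCCC on the opposite strand, the E-box motif with CAGCTG, and CCAAT.
Prph: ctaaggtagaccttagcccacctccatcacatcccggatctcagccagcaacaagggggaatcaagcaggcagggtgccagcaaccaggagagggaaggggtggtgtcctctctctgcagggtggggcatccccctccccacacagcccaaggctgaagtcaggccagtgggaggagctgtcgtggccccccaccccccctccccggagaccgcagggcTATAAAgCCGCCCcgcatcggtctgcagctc
Ina: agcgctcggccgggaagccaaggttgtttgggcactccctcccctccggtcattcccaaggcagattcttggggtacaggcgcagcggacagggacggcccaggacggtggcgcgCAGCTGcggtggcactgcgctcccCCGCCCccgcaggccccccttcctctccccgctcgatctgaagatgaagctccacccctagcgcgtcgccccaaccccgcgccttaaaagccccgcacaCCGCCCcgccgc
The Prph promoter held TATAAA 31 bases before the start and CCGCCC 24 bases before it, without overlap. The Ina promoter held CCGCCC 111 and 12 bases before the start and CAGCTG 135 bases before it. Neither window held CCAAT, and Ina's held no TATAAA. Of 32851 mouse promoters of the same length, TATAAA was in 12.4%, GGGCGG in 32.7%, CAGCTG in 13.0% and CCAAT in 33.8%, so these matches are descriptions of the sequences and no statement on binding.

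Neurons made up 7.15% to 100% of the nuclei of a library, from 25 neurons in traced 2 to 2148 in the uninjured library of experiment 2. The UMIs summed over neurons ranged from 135012 in the regenerating library to 20739862 in the uninjured one, and the median per neuron was 488 in the regenerating library and 5767 to 16490 in the others. The neuron markers Rbfox3, Snap25, Syt1, Slc17a6, Gad1, Gad2, Slc32a1 and Slc6a5 summed to 2912 to 3811 CPM (UMIs of a gene per 1000000 UMIs of the nuclei summed) in the neurons of every library. Only 4 nucleus barcodes occurred in 2 libraries. In the uninjured library of experiment 2 the names of all 2148 neurons carried a barcode and those of all 4489 other nuclei carried none, and no source used here says whether both sets came from 1 preparation. That library stood apart in 2 further ways. Mitochondrially encoded transcripts were 0.464% of neuron UMIs there against 0.0590% to 0.171% in the other 7 libraries. Markers of oligodendrocytes (10 genes, among them Mbp and Mobp) summed to 798 CPM in its neurons against 78.0 to 267 CPM elsewhere.

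The level of all 5 genes in neurons was highest in the uninjured library of experiment 2, except that Prph was higher in traced 2. Nefl, the core subunit, was at 62.4 CPM in untraced 1 and 11.2 CPM in untraced 2, at 46.8 and 60.0 CPM in traced 1 and 2, at 27.6 and 21.98 CPM in hemisection 1 and 2, at 152 CPM in the uninjured library of experiment 2, and at 29.6 CPM (4 counts) in the regenerating one. Both hemisection libraries lay below both traced libraries and the uninjured library of experiment 2, and between the 2 untraced libraries.
Nefm, the medium chain, was at 110.3 and 19.0 CPM in untraced 1 and 2, 74.4 and 99.0 CPM in traced 1 and 2, 41.6 and 31.5 CPM in hemisection 1 and 2, 219 CPM in the uninjured library of experiment 2 and 44.4 CPM (6 counts) in the regenerating one. Its order over the libraries was that of Nefl, with untraced 2 lowest and the uninjured library of experiment 2 highest.
Nefh, the heavy chain, was at 31.1 and 8.95 CPM in untraced 1 and 2, 17.9 and 14.99 CPM in traced 1 and 2, 14.2 and 13.4 CPM in hemisection 1 and 2, 82.7 CPM in the uninjured library of experiment 2 and 14.8 CPM (2 counts) in the regenerating one. The hemisection libraries again lay between the untraced libraries.
Ina, the alpha-internexin gene, was at 79.5 and 49.2 CPM in untraced 1 and 2, 62.7 and 33.0 CPM in traced 1 and 2, 59.9 and 52.6 CPM in hemisection 1 and 2, 90.1 CPM in the uninjured library of experiment 2 and 59.3 CPM (8 counts) in the regenerating one. It spanned a much narrower range than the neurofilament chains.
Prph was at 4.85 and 1.12 CPM in untraced 1 and 2, at 0 and 21.0 CPM in traced 1 and 2, at 0.614 and 2.87 CPM in hemisection 1 and 2, at 9.02 CPM in the uninjured library of experiment 2, and at 0 in the regenerating one, where a count of 0 allows up to 22.2 CPM (3 counts; such limits and all intervals cover counting error only). The 2 traced libraries were thus its highest level and a level of 0.

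**Figure D1:**
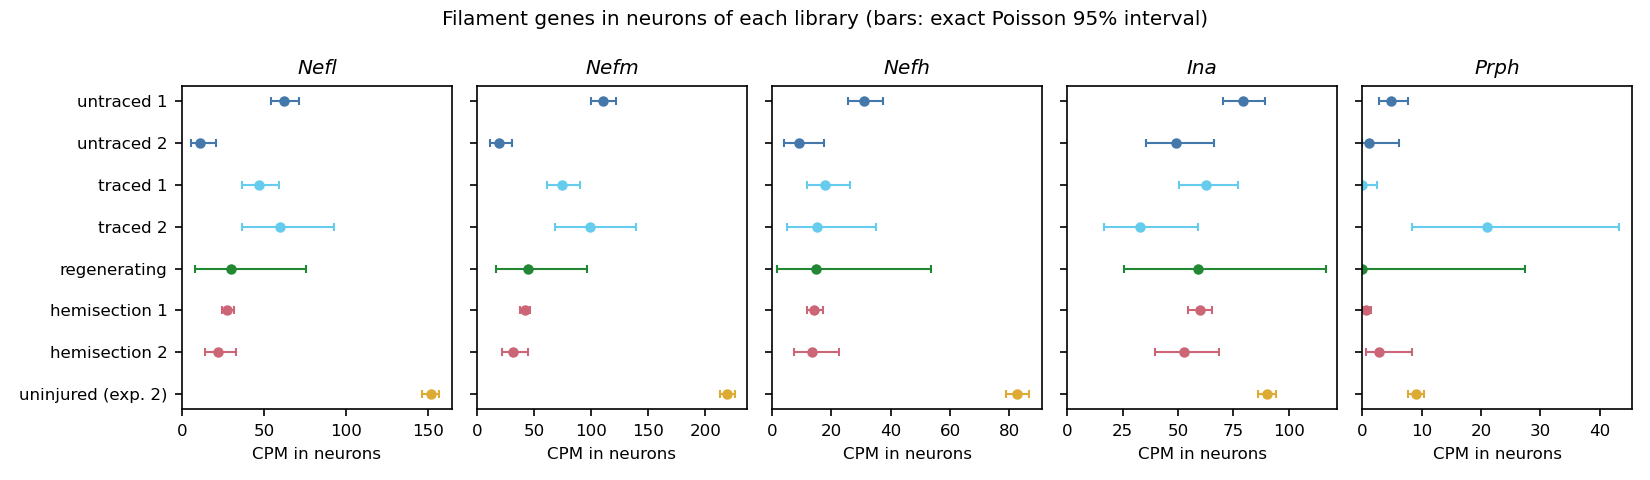
CPM of each filament gene (horizontal axis, from 0) in the summed neurons of each of the 8 libraries, with exact Poisson 95% intervals that cover counting error only; colours mark the groups. Nefl, Nefm and Nefh stand far to the right in the uninjured library of experiment 2, and the 2 untraced libraries lie on both sides of the hemisection libraries.

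After hemisection the 3 neurofilament chains were lower than in the uninjured library of the same experiment, while Ina and Prph did not pass the test. Nefl averaged 24.8 ± 4.00 CPM (SD, n = 2) after hemisection against 152 CPM, a log2 fold change of -2.45 with a standard error of 0.42 (5.48-fold lower, adjusted p = 0.00253, edgeR's quasi-likelihood test with Benjamini-Hochberg adjustment over 11601 genes). Nefm averaged 36.6 ± 7.14 CPM (SD, n = 2) against 219 CPM, and fell by 2.42 on the log2 scale (SE 0.45, adjusted p = 0.00446, same edgeR test). Nefh averaged 13.8 ± 0.612 CPM (SD, n = 2) against 82.7 CPM, and fell by 2.46 on the log2 scale (SE 0.37, adjusted p = 0.000924, same edgeR test). Thus 3 of the 5 genes were called lower and 0 higher, where 4.61% of all genes tested were lower and 0.948% higher. Ina had a log2 fold change of -0.55 (SE 0.28, adjusted p = 0.306) and Prph, on 5 and 3 counts after hemisection, of -3.04 (SE 1.17, adjusted p = 0.158), both in the same edgeR fit. The reference is 1 library, which the fit assumed to vary like the replicated groups, and nothing in the labels says that the 2 hemisection libraries came from separate animals, so these p-values measure only the spread between libraries. With DESeq2's Wald test Nefh stayed lower and the calls of Nefl and Nefm were lost (adjusted p = 0.343 and 0.408), and with only the libraries of both groups in the edgeR fit Ina (adjusted p = 0.0299) and Prph (adjusted p = 0.000594) were called lower too. Prph was also called without the filter on low counts (adjusted p = 0.00263).

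Against the untraced libraries of experiment 1, the other uninjured reference, none of the 5 genes passed the test. The hemisection levels given above compare with 36.8 ± 36.2 CPM (SD, n = 2) for Nefl, 64.7 ± 64.5 CPM for Nefm, 20.01 ± 15.6 CPM for Nefh, 64.4 ± 21.4 CPM for Ina and 2.98 ± 2.64 CPM for Prph in untraced neurons. The SD was as large as the mean for Nefl and Nefm, because untraced 1 was 5.58-fold above untraced 2 for Nefl and 5.80-fold above it for Nefm. The log2 fold changes were -0.71 (SE 0.40) for Nefl, -0.91 (SE 0.41) for Nefm, -0.71 (SE 0.37) for Nefh, -0.21 (SE 0.26) for Ina and -1.84 (SE 1.24) for Prph, with an adjusted p of 1 for each in the edgeR test. Of the 5 genes 0 were called, where 0.0517% of all genes were called lower and 0.138% higher, and Nefm alone had an unadjusted p below 0.05 (0.0445). DESeq2's Wald test called 0 of them too, and edgeR without the filter on low counts called Nefm lower (adjusted p = 0.0296). The direction rested on untraced 1. Without it Nefl (1.17), Nefm (0.97), Nefh (0.60) and Ina (0.18) had positive log2 fold changes, and without untraced 2 Nefl (-1.21, adjusted p = 0.0135) and Nefm (-1.47, adjusted p = 0.00134, edgeR) were called lower. Injury and experiment cannot be told apart in this comparison.

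The 2 uninjured references differed from each other in the neurofilament chains. Nefl (log2 fold change 1.75, SE 0.41, adjusted p = 0.0335) and Nefh (1.75, SE 0.36, adjusted p = 0.0178) were higher in the uninjured library of experiment 2 than in untraced neurons by edgeR's quasi-likelihood test, 2 of the 5 genes where 2.07% of all genes were called higher. Nefm (1.52, SE 0.44, adjusted p = 0.0889), Ina (0.34, SE 0.29, adjusted p = 0.642) and Prph (1.20, SE 1.02, adjusted p = 0.649) did not pass it. Because both hemisection comparisons use the same hemisection libraries, this is also the test of the difference between them. The calls for Nefl and Nefh were lost with DESeq2's Wald test (adjusted p = 0.789 and 0.198) and with equal numbers of nuclei per subtype family (adjusted p = 0.148 and 0.314, edgeR). They were also lost after the subtraction of glial RNA described below (adjusted p = 0.843 and 0.665, edgeR).

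**Figure D2:**
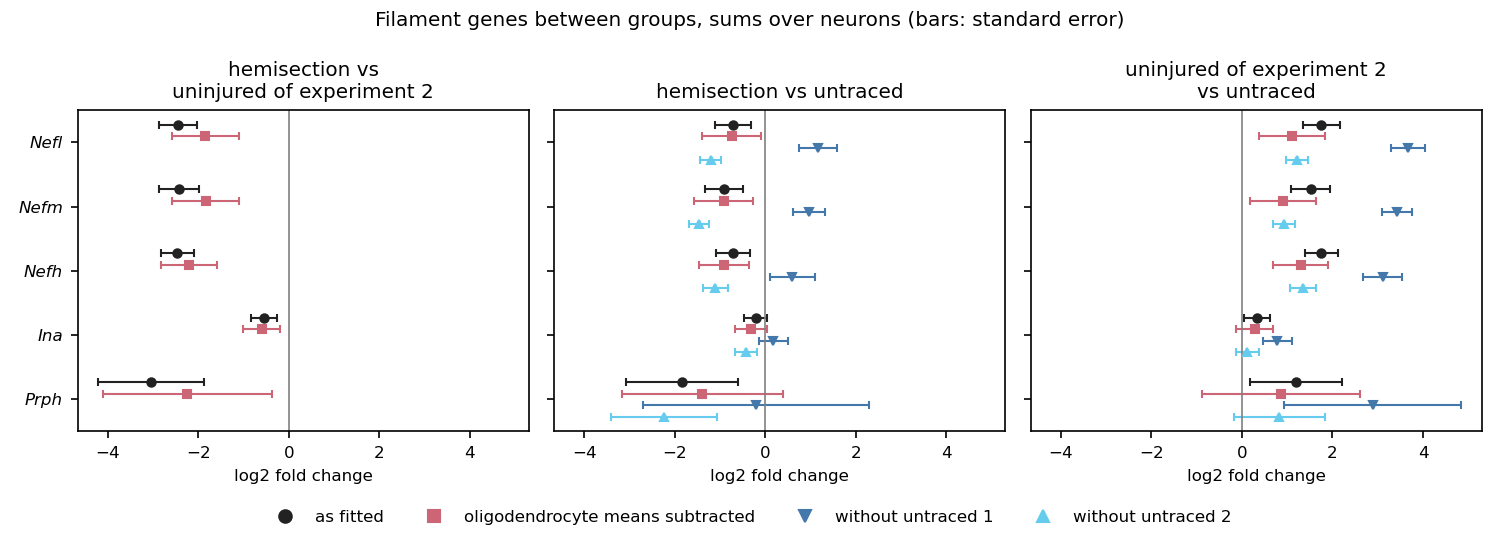
Log2 fold change with its standard error (horizontal axis) for each gene in 3 comparisons of summed neurons, as fitted, after subtracting the mean UMIs of oligodendrocyte nuclei, and without either untraced library. Nefl, Nefm and Nefh lie near -2.45 against the uninjured library of experiment 2, and against untraced neurons they change side when untraced 1 is left out.

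In the uninjured library of experiment 2 oligodendrocytes, microglia and astrocytes held more neurofilament RNA, as a share of their UMIs, than neurons did. Oligodendrocytes, the myelin-forming cells (3164 nuclei), had 217 CPM of Nefl, 273 of Nefm and 97.2 of Nefh, against 152, 219 and 82.7 CPM in the neurons of the same library. Microglia (366 nuclei), the immune cells of the cord, were at 274, 386 and 125 CPM. Ina went the other way, with 44.2 CPM in oligodendrocytes and 90.1 CPM in neurons, and Prph was at 9.27 CPM in oligodendrocytes and 9.02 CPM in neurons. Oligodendrocyte precursors (177 nuclei) were not above neurons, at 146 CPM of Nefl, 208 of Nefm and 74.8 of Nefh.
In the other libraries with 20 or more oligodendrocyte nuclei the neurofilament genes were low in these nuclei. Nefl was at 19.6 and 9.77 CPM in untraced 1 and 2 and at 12.04 (2 counts) and 12.6 CPM in hemisection 1 and 2, and Nefm was at 10.4, 6.52, 0 and 6.30 CPM in the same order. For Nefm in hemisection 1 the count of 0 came from 62 nuclei and 166061 UMIs. Oligodendrocytes of the uninjured library of experiment 2 thus had more Nefl and Nefm, as a share of UMIs, than the neurons of any other library. Per nucleus these oligodendrocytes held 0.784 UMIs of Nefl and 0.985 of Nefm. Neurons held 0.85 and 1.35 in traced 1, 0.80 and 1.32 in traced 2, and 0.619 and 1.09 in untraced 1. In the untraced 2, hemisection and regenerating libraries neurons held fewer of both than these oligodendrocytes.
The 8 neuron markers named above were not higher in CPM in oligodendrocytes than in neurons. In oligodendrocytes of the uninjured library of experiment 2 the 8 neuron markers summed to 690 CPM against 3811 CPM in its neurons, with Snap25, a synaptic vesicle fusion protein, at 394 against 812 CPM and Rbfox3, the NeuN antigen, at 45.0 against 470.1 CPM. In untraced 1 the same 8 markers summed to 64.2 CPM in oligodendrocytes and 3673 CPM in neurons.

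Thinning every nucleus to 2000 UMIs, which left out shallower ones, gave the same order. In the uninjured library of experiment 2 a UMI of Nefl was expected in 22.8% of 2136 neurons, 34.6% of 3023 oligodendrocytes and 37.2% of 299 microglia. On this measure neurons did not stand above cells not known for the gene, and how much of the signal is background was not tested. Before thinning the shares were 62.6%, 49.8% and 47.3% at median depths of 8907, 3347 and 2575 UMIs, with 12, 141 and 67 nuclei left out by the threshold. Without thinning, UMIs of Nefl per nucleus were 1.46 in neurons, 0.784 in oligodendrocytes and 0.762 in microglia. In untraced 1 the thinned shares were 9.10% of 350 neurons and 4.01% of 1066 oligodendrocytes, with 4 and 190 nuclei left out (28.5% and 6.37% before thinning, median depths 8522 and 3205). In hemisection 1 they were 4.84% of 819 neurons and 0.808% of 44 oligodendrocytes, with 181 and 18 left out (15.2% and 3.23% before thinning, median depths 7149 and 2503). In the other replicate of each group neurons and oligodendrocytes were closer. In untraced 2 the thinned shares were 1.86% of 106 neurons and 1.60% of 269 oligodendrocytes, with 17 and 251 left out (7.32% and 1.73% before thinning, median depths 5767 and 2044). In hemisection 2 they were 3.14% of 107 neurons and 2.30% of 380 oligodendrocytes, with 1 and 385 left out (16.7% and 2.35% before thinning, median depths 7828 and 1989).

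Within the uninjured library of experiment 2, neurons and glia held the neurofilament genes in similar ratios to each other, while Ina did not follow them. Ratios are read here only across libraries and cell classes, since genes of unlike length are not comparable in level. Counts of Nefl per count of Nefm were 0.692 (95% interval 0.661 to 0.724) in neurons of the uninjured library of experiment 2, 0.664 (0.558 to 0.788) in hemisection 1 and 0.566 (0.477 to 0.670) in untraced 1. In the uninjured library they were 0.796 (0.755 to 0.839) in oligodendrocytes, 0.710 (0.607 to 0.830) in microglia and 0.751 (0.672 to 0.840) in astrocytes, against 1.88 (1.31 to 2.71) in oligodendrocytes of untraced 1. The interval of oligodendrocytes of the uninjured library lay above that of its neurons, and those of microglia and astrocytes overlapped it. Counts of Ina per count of Nefm were 0.411 (0.389 to 0.434) in neurons of the uninjured library and 0.162, 0.127 and 0.138 in its oligodendrocytes, microglia and astrocytes. In neurons of hemisection 1 and 2 that ratio was 1.44 (1.25 to 1.66) and 1.67 (1.06 to 2.65), above the 0.721 (0.616 to 0.843) of untraced 1 and with intervals that overlapped the 2.59 (1.45 to 4.83) of untraced 2.

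**Figure D3:**
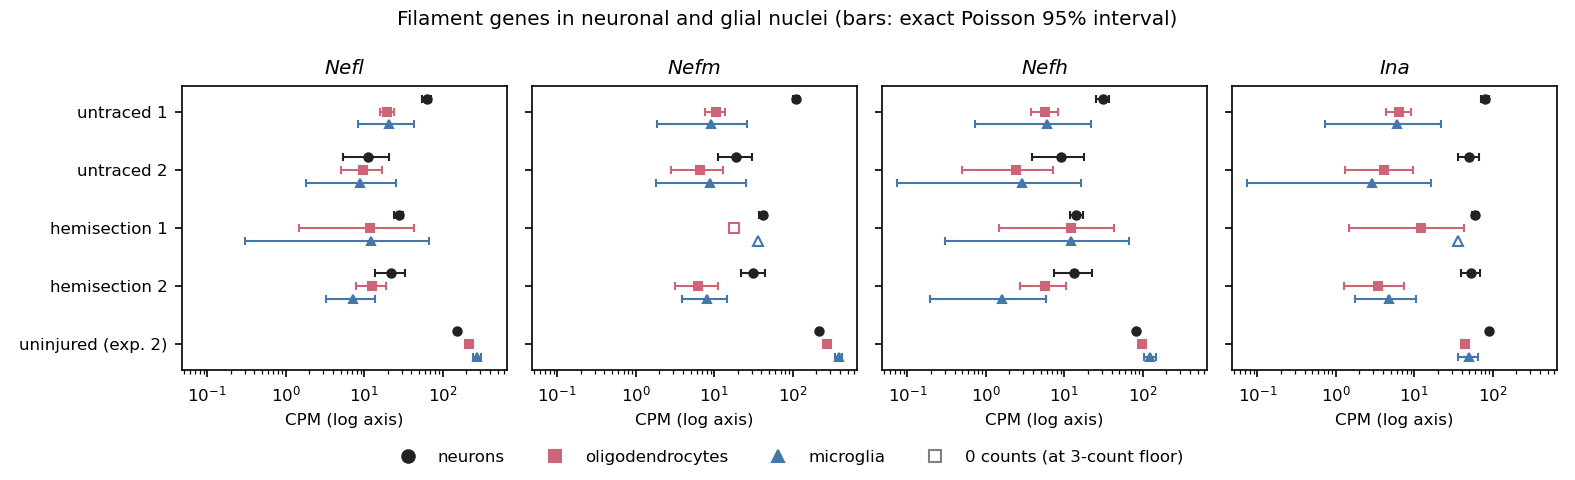
CPM on a log axis of 4 filament genes in neurons, oligodendrocytes and microglia of the 5 libraries with 20 or more nuclei of each class, with exact Poisson 95% intervals; an open marker is a count of 0, drawn at the level of 3 counts. In the uninjured library of experiment 2 the glial classes lie to the right of neurons for Nefl, Nefm and Nefh and to the left for Ina, and in the other libraries neurons lie to the right of both for Nefm and Ina.

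When the mean UMIs of an oligodendrocyte nucleus of the same library were subtracted from each neuron, an alternative chosen after seeing these values, the fall after hemisection kept its sign and lost its calls. The log2 fold changes against the uninjured library of experiment 2 became -1.84 (SE 0.73, adjusted p = 0.386) for Nefl, -1.83 (SE 0.74, adjusted p = 0.394) for Nefm and -2.21 (SE 0.62, adjusted p = 0.188) for Nefh, in the same edgeR test. Over all genes that comparison then had 82 calls in place of 645. Against untraced neurons the same subtraction left Nefl at -0.74, Nefm at -0.92 and Nefh at -0.91. The part of glial or free RNA in the fall of the neurofilament genes was not tested beyond this.

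Traced and untraced neurons, which address whether neurons projecting to the lumbar cord differ, were not told apart by these genes. The log2 fold changes of traced over untraced were 0.21 (SE 0.43, adjusted p = 0.977) for Nefl, 0.15 (SE 0.44, adjusted p = 0.989) for Nefm, -0.47 (SE 0.44, adjusted p = 0.874) for Nefh, -0.37 (SE 0.29, adjusted p = 0.839) for Ina and 0.47 (SE 1.30, adjusted p = 0.984) for Prph in the edgeR test. Of the 5 genes 0 were called, by DESeq2's Wald test as well, and 0 had an unadjusted p below 0.05 in edgeR, while 0.362% of all genes were called in either direction. Traced 1 lay below untraced 1 for Nefl and Nefm and traced 2 lay above untraced 2, so the 2 same-numbered pairs pointed opposite ways. With the number in the title as a replicate block 141 genes in all were called in place of 42, and 0 of the 5. Nefl was at 0.18 (adjusted p = 0.922) and Ina at -0.42 (adjusted p = 0.540) in that edgeR fit. Without untraced 1 Nefl (2.07, adjusted p = 0.0252) and Nefm (2.00, adjusted p = 0.0129, edgeR) were called higher in traced neurons. Subtypes with names beginning in V, read here as ventral, were 50% and 48.0% of the traced neurons and 17.8% and 11.4% of the untraced ones, and the part of this mixture was tested only with equal nuclei per family (21 per library), where Nefl was at -0.57 and Nefm at -0.83.

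Regenerating neurons held too few UMIs for a comparison of these genes. They had 4 counts of Nefl, 6 of Nefm, 2 of Nefh, 8 of Ina and 0 of Prph over 238 nuclei, and the exact Poisson 95% intervals ran from 8.07 to 75.9 CPM for Nefl, from 16.3 to 96.7 CPM for Nefm, from 1.79 to 53.5 CPM for Nefh and from 25.6 to 116.8 CPM for Ina. The traced values of Nefl, Nefh and Ina lay inside these intervals, as did Nefm of traced 1, and Nefm of traced 2, at 99.0 CPM, lay just above. The adjusted p was 0.723 for Nefl, 0.660 for Nefm, 0.941 for Nefh and 0.952 for Ina by edgeR's quasi-likelihood test, and 0 of the 5 genes were called where 0.276% of all genes were. DESeq2's Wald test called 0 as well and 0 had an unadjusted p below 0.05 in edgeR, so a difference was not detectable at this depth.

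Among 24 neuron subtypes with at least 20 nuclei in the uninjured library of experiment 2, the neurofilament genes were highest in motor neurons (MN, 24 nuclei). The subtypes are the deposited annotation, so their levels are given with no test. The MN nuclei carried motor neuron markers, with Chat, the acetylcholine-synthesising enzyme, at 231 CPM, the choline transporter Slc5a7 at 227 CPM and the transcription factor Isl1 at 37.8 CPM. Nefl was at 342 CPM in MN (95% Poisson interval 290.2 to 400.6) and at 194 CPM in DE_Rora. It was lowest in DE_Reln_Trhr (60.0 CPM), DE_Tac2_Nmu (87.9), DI_Npy (93.0) and DI_Pdyn_Gal (103).
Nefm was at 531 CPM in MN (466 to 603), 322 in DE_Rora and 302 in VIP_V1_Foxp2, a ventral inhibitory subtype, and lowest in DE_Cck_Cpne4 (93.4), VIL_V0d_Bhlhe22 (108), DI_Nxph1_Npy (116) and DI_Npy (118). Nefh was at 215 CPM in MN (175 to 263), 144 in VIP_V1_Foxp2 and 114 in VIP_V1_Mafa, and lowest in DE_Reln_Trhr (20.01), DI_Npy (35.6), DE_Tac2_Nmu (36.6) and DI_Nxph1_Npy (43.9). Of the 23 pairs of neighbours in each order only 1 had separate intervals for each of Nefl, Nefm and Nefh, so the order is firm only over wider steps. Oligodendrocytes of the same library were at 217 CPM of Nefl, below that of MN and above that of DE_Rora.

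Ina ran against the neurofilaments in motor neurons. It was at 17.8 CPM in MN (7.67 to 35.0, 8 counts), the lowest of the 24 subtypes, followed by DE_Tac2_Nmu (38.8), DE_Cck_Cpne4 (46.7) and DE_Sox5_Qrfpr (64.4). It was highest in DE_Rora (169.9), VIL_V1_Sp8 (126), DE_Rreb1_Zim1 (126) and VIL_V0d_Bhlhe22 (124). No pair of neighbours among 23 had separate intervals for Ina. The count of Ina per count of Nefm was 0.0335 (0.0143 to 0.0670) in MN.

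Prph was highest in motor neurons too. It was at 104 CPM in MN (76.7 to 139), at 14.0 CPM in DE_Cck_Cpne4 (5.14 to 30.5) and at 11.4 CPM in DE_Tac2_Nmu. The MN nuclei held 47 of the 187 Prph counts, 25.1%, from 24 of 2148 neurons. Among the lowest were MIP_Tfap2b (0 counts in 79 nuclei), DE_Reln_Nmur2 (1 count) and VIP_V1_Mafa (1 count). In traced 2 all 7 Prph counts came from the 2 nuclei annotated as MN, and 1 of these held 6 of them. In untraced 1 the 2 MN nuclei held 9 of 17 counts. Neither hemisection library had an MN nucleus, and their 5 and 3 counts came from other subtypes, 3 of them from 1 DE_Reln_Nmur2 nucleus.

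**Figure D4:**
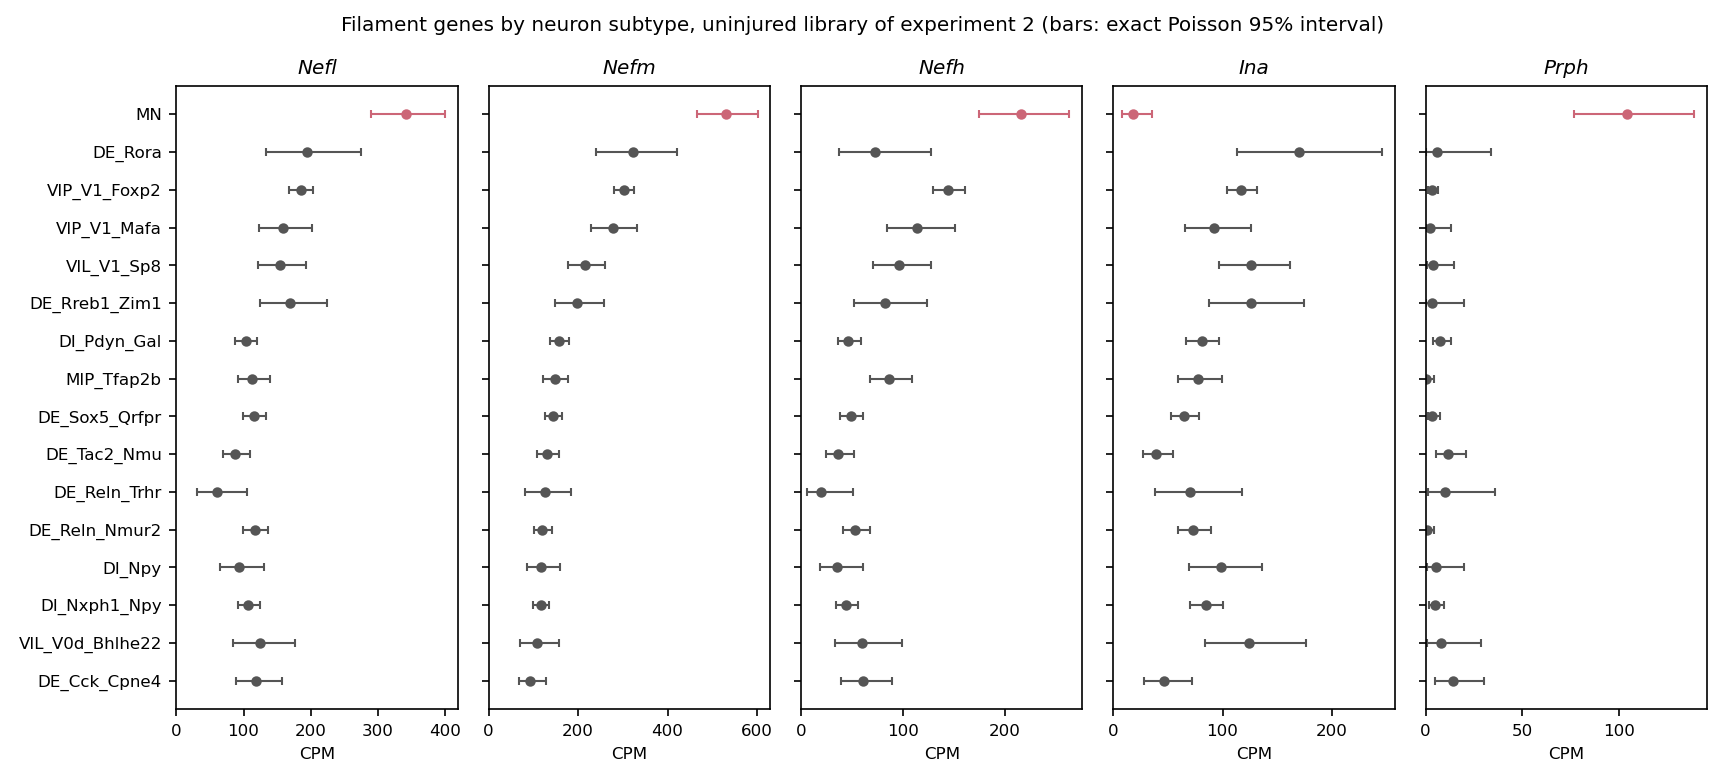
CPM of each filament gene (horizontal axes, from 0) in 16 of 24 neuron subtypes of the uninjured library of experiment 2, those named in the text, ordered by Nefm, with exact Poisson 95% intervals; red marks MN. MN is highest for Nefl, Nefm, Nefh and Prph and lowest for Ina.

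The 3 neurofilament genes followed each other across these 24 subtypes and Ina did not follow them. Pearson's r of log2(CPM + 10) was 0.847 between Nefl and Nefh, 0.817 between Nefl and Nefm and 0.785 between Nefm and Nefh, and Ina had an r of 0.027 with Nefl, 0.027 with Nefm and -0.071 with Nefh. These are descriptions over subtypes of 1 library, which share its free RNA and differ in depth. Among 4102 genes at a mean of 50 CPM or more, those most like Nefl were Ywhag (0.848), Nefh, March11 (0.827), Nefm and Ubr4 (0.794). Those most like Nefm were Nefl, Ywhag (0.816), Add1 (0.807), Zfyve28 (0.803) and Sntb2 (0.802). Those most like Nefh were Nefl, Asb13 (0.812), Gpatch8 (0.812), Msrb3 (0.807) and Dync1h1 (0.801). Those most like Ina were Usp8 (0.809), Lamp1 (0.782), Sybu (0.781), Bscl2 (0.778) and Slc25a4 (0.774).

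Ventral subtypes held more Nefm than dorsal ones in the untraced, hemisection and uninjured libraries. Nefm in subtypes named V over those named D was 2.03-fold in the uninjured library of experiment 2, 3.93- and 3.34-fold in untraced 1 and 2, 2.23- and 3.27-fold in hemisection 1 and 2, and 1.40- and 0.990-fold in traced 1 and 2. Few counts lay behind some of these ratios, with 7 ventral and 9 dorsal in untraced 2, 16 and 16 in hemisection 2, and 13 and 7 in traced 2. In the uninjured library of experiment 2 dorsal neurons were at 114 CPM of Nefl and 153 of Nefm. In hemisection 1 dorsal neurons were at 25.3 and 31.9 CPM and ventral ones at 37.4 and 71.2 CPM. Excitatory and inhibitory neurons were close to each other, with Nefm at 222 and 201 CPM in the uninjured library of experiment 2, 41.0 and 43.8 CPM in hemisection 1 and 107.6 and 95.2 CPM in untraced 1. Ina was at 85.8 and 99.7 CPM in the uninjured library of experiment 2 and at 50.2 and 76.4 CPM in hemisection 1, lower in excitatory neurons in both. This order did not hold in every library. Ina in excitatory neurons against all neurons was at 63.0 against 52.6 CPM in hemisection 2 and 81.7 against 79.5 CPM in untraced 1. In untraced 2 it was at 34.9 against 49.2 CPM. These classes were read from the letters E and I in the subtype names, and no difference between them was tested.

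Within subtypes the difference between hemisection 1 and the uninjured library of experiment 2 held its direction. In 15 subtypes with at least 20 nuclei in both libraries Nefl, Nefm and Nefh were lower in hemisection 1 in 15 of 15, and Ina in 12 of 15. Prph was also lower in 12 of 15, but all neurons of hemisection 1 held only 5 Prph counts. Its median over the subtypes was 0 there against 4.66 CPM, so that number rests on levels near the floor. The median over these subtypes was 28.7 against 118 CPM for Nefl, 30.4 against 158 CPM for Nefm, 8.45 against 64.7 CPM for Nefh and 60.4 against 82.5 CPM for Ina. Spearman's rho of the 15 subtypes' levels between both libraries was 0.68 for Nefm, 0.49 for Nefl, 0.33 for Nefh and 0.21 for Ina, as a description of 2 libraries. The 15 subtypes share these 2 libraries and are not separate tests of hemisection. Untraced 1, from uninjured mice, had 7 subtypes of at least 20 nuclei. Nefl, Nefm and Nefh were below the uninjured library of experiment 2 in all 7. In DE_Maf_Cpne4 Nefl was at 59.7 against 133 CPM and Nefm at 171 against 189 CPM, the closest of the 7 for Nefm. In the other subtypes Nefm in untraced 1 ran from 12.7 CPM in DE_Reln_Nmur2 to 54.5 CPM in DI_Pdyn_Gal. The uninjured library of experiment 2 held 120 and 158 CPM in these 2 subtypes.

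**Figure D5:**
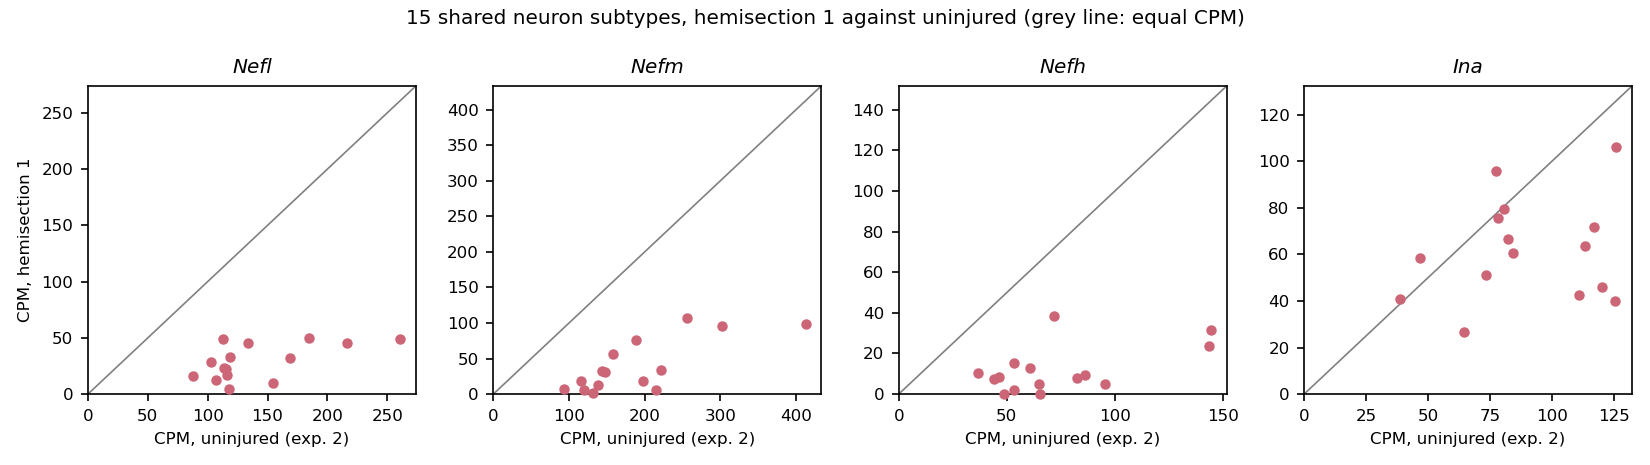
CPM in hemisection 1 (vertical axis) against CPM in the uninjured library of experiment 2 (horizontal axis) for 15 neuron subtypes with 20 or more nuclei in both; the grey line marks equal values. For Nefl, Nefm and Nefh all 15 points lie below the line, and for Ina 12 of 15 do.

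The comparison could be tested inside 1 subtype, DE_Reln_Nmur2, a dorsal excitatory subtype that had at least 20 nuclei in each hemisection, untraced and uninjured library. Nefl was at 17.1 CPM (8 counts) and 8.31 CPM (1 count) in hemisection 1 and 2, at 116 CPM in the uninjured library of experiment 2, and at 17.0 CPM (4 counts) and 0 in untraced 1 and 2. Nefm was at 6.40 (3 counts) and 8.31 CPM (1 count) after hemisection, 120.3 CPM in the uninjured library of experiment 2, and 12.7 CPM (3 counts) and 0 in untraced neurons. Both hemisection libraries and both untraced libraries lay below the uninjured library of experiment 2, and they overlapped each other. Fits within a subtype held only the libraries of the groups compared. Against the uninjured library of experiment 2 these were the 2 hemisection libraries and that 1 library. Their p-values thus rest on the spread between the 2 hemisection libraries and are not comparable with those of the fit of all 8 libraries. By edgeR's quasi-likelihood test, adjusted over 7788 genes, Nefl fell after hemisection, relative to the uninjured library of experiment 2, with a log2 fold change of -2.87 (SE 0.50, adjusted p = 3.26e-06). Nefm had -4.04 (SE 0.58, adjusted p = 2.35e-09) in the same edgeR test, and Nefh was lower too (adjusted p = 8.17e-05), on 1 count after hemisection against 69. Ina was at -0.34 (SE 0.41, adjusted p = 0.898). The share of all genes called lower in this subtype was 2.61%, and Prph was too low to be tested. With at least 10 nuclei in each library, DE_Sox5_Qrfpr and DI_Nxph1_Npy could be tested as well, and Nefl, Nefm and Nefh were called lower in both, where 2.25% and 2.51% of all genes were. Against untraced neurons only Ina reached the count filter in DE_Reln_Nmur2 (log2 fold change 0.15, SE 0.53, adjusted p = 1, edgeR), and the share of all genes called lower was 0.

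Other intermediate filament genes, and genes listed as linkers, motors or kinases of filaments, did not pass the test after hemisection. Of all genes tested 4.61% were called lower and 0.948% higher in that comparison. At these shares such short lists would hold few calls, so 0 calls are no result about these genes. Of 9 other intermediate filament genes tested against the uninjured library of experiment 2, 0 were called, among them Iffo1 (-0.52, adjusted p = 0.284) and Synm, the synemin gene (-0.77, adjusted p = 0.511), and the list's median log2 fold change was -0.04 beside 0.03 for all genes. Of 15 linkers and motors, 0 were called, with Kif5a, the kinesin that carries neurofilaments, at -0.46 (adjusted p = 0.264) and the dynein chain Dync1i2 at 0.46 (adjusted p = 0.274), and a median of -0.07. Of 9 filament kinases 0 were called, with Gsk3b at 0.60 (adjusted p = 0.139) and Gsk3a at -0.78 (adjusted p = 0.221), and a median of 0.22. All p-values of these lists come from the same edgeR fit over 11601 genes.
Part of the microtubule list and most of the list of large fast-firing neurons moved with the neurofilaments. The counts below are to be read beside the 4.61% of all genes called lower in that comparison. Of 19 microtubule genes 5 were lower and 0 higher, namely the tubulins Tubb4a (-1.77), Tuba4a (-2.09) and Tuba1b (-1.53), the microtubule regulator Stmn3 (-1.08) and Map1a (-0.96), with adjusted p from 0.00255 to 0.0255 by edgeR, and the list's median was -0.33. Of 11 genes of large fast-firing neurons 7 were lower and 0 higher, with a median of -1.34. They included Thy1 (-2.20), a surface protein of projection neurons, the sodium channel subunit Scn4b (-2.20), the calcium sensor Syt2 (-1.76) and the potassium channels Kcna1 (-1.38) and Kcna2 (-0.90), with adjusted p from 0.000163 to 0.0366 in the edgeR fit. Of 3 motor neuron genes tested 1 was lower, Slc5a7 (-2.88, adjusted p = 0.0186).
Markers of other cells moved in the same comparison. All 10 oligodendrocyte markers were lower after hemisection, with a median of -3.00, as were all 13 mitochondrially encoded transcripts, with a median of -2.86. The summed oligodendrocyte markers were at 85.0 and 188 CPM in hemisection 1 and 2 and 249 and 267 CPM in untraced 1 and 2, against 798 CPM in the uninjured library of experiment 2, and none of the 10 was at 0 in these 5 libraries. Of 4 astrocyte markers tested 2 were lower, of 5 microglia markers 2 were lower and 1 higher, and of the 8 neuron markers 1 was lower. Against untraced neurons 0 genes of the filament, linker, kinase, microtubule and fast-firing lists were called. There 1 oligodendrocyte marker, Mal (-2.50, adjusted p = 0.0260, edgeR), was lower. Of all genes 0.0517% were called lower and 0.138% higher against untraced neurons. Between the uninjured references Gfap, an astrocyte filament, Tubb4a and 4 of 11 fast-firing genes (Spp1, Syt2, Thy1 and Scn4b) were higher in experiment 2, together with 5 of 10 oligodendrocyte markers and 12 of 13 mitochondrial transcripts, where 2.07% of all genes were. The part of these markers in the fall of the neurofilament genes was not tested.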

How the data were processed

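The deposited matrix holds UMI counts per nucleus and gene, with a table that gives each nucleus a library, a class and a neuron subtype. Per the submitters' processing notes the authors used Cell Ranger 4.0.0 and Seurat 3 with mm10. The sources used here do not give the filter on nuclei, the treatment of doublets or the counting of strand, and no nucleus was removed and no doublet caller run here. The filament genes and the gene lists were chosen with earlier results of these data known.

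Counts were summed over the annotated neurons of each library, 135012 to 20739862 UMIs, and tested with edgeR 4.0.16 in R 4.3.3 (trimmed mean of M-values, quasi-likelihood test) in 1 fit of all 8 libraries with 3 residual degrees of freedom. Genes passing the count filter (minimum 10, total 15) numbered 11601. The threshold for a call was an adjusted p under 0.05 after Benjamini-Hochberg correction. The same test was run within subtypes of at least 20 nuclei, in separate fits that held only the libraries of both groups compared. The scripts were tested on simulated data. Intervals are exact Poisson 95% intervals and, like the limit of 3 counts behind a 0, cover counting error only, since UMIs of 1 nucleus are not replicates.

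Named were all 5 filament genes, the 4 highest and 4 lowest subtypes of each, the 5 genes most like each filament gene with at least 500 UMIs, and in each list up to 6 called genes, or otherwise the 2 with the smallest p; a few of these are not reported here. DESeq2 1.42.0, other scalings and filters, smaller sets of libraries or nuclei and an oligodendrocyte subtraction were tried as alternatives. Same-numbered traced and untraced libraries share that number in their titles, which do not say that it is 1 animal. Their deviations correlated at 0.148 over 10364 genes. Promoters come from the RefSeq table of GRCm38.p6 and gene coordinates from GENCODE M21.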

Additional observations from a re-analysis of the deposited data

Results flagged for a closer look

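A signal of neuronal filament genes appeared in nuclei outside the neuron comparisons. Oligodendrocyte nuclei of the uninjured library of experiment 2 held 217 CPM of Nefl, 273 CPM of Nefm, 97.2 CPM of Nefh, 44.2 CPM of Ina and 9.27 CPM of Prph. Each was above the level in oligodendrocyte nuclei of both untraced libraries, where Nefl was at most 19.6 CPM, Nefm 10.4 CPM, Nefh 5.74 CPM, Ina 6.38 CPM and Prph 0.851 CPM. The source of this RNA was not tested.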

How the results depend on the processing

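After hemisection Nefl, Nefm, Nefh and Ina stayed lower than in the uninjured library of experiment 2 under all 12 alternatives, with log2 fold changes of -2.64 to -1.84, -2.65 to -1.83, -2.53 to -1.73 and -0.78 to -0.50. The 3 calls became 1 with DESeq2's Wald test, 5 with only the libraries of both groups and 0 after the subtraction, which was chosen after seeing the data. Calls within subtypes rose from 3 to 9 at a minimum of 10 nuclei, where 3 subtypes in place of 1 could be tested. Against untraced neurons 0 genes called lower became 1 without the count filter, and 0 to 2 when 1 library was left out. Without untraced 1 the log2 fold changes were 1.17 for Nefl, 0.97 for Nefm, 0.60 for Nefh and 0.18 for Ina, and the lowest with 1 library left out were -1.21, -1.47, -1.10 and -0.42. For traced over untraced 0 called higher became 0 to 2 when 1 library was left out. With 1 library left out Nefl ranged from -0.32 to 2.07, Nefm from -0.44 to 2.00, Nefh from -0.86 to 0.84 and Ina from -1.14 to 0.04. Without the nucleus with the most filament UMIs Nefm was at -0.11 and Prph at -2.15, and with equal nuclei per family Nefl was at -0.57 and Nefm at -0.83. For regenerating over traced, Nefh ranged from -0.37 to 0.04 and Ina from -0.17 to 0.90 with 1 traced library left out, and without the nucleus with the most filament UMIs these were 0.06 and -0.54; over all 10 alternatives Ina ran from -0.54 to 1.62 (equal nuclei per family). The 2 calls between uninjured references became 0 with DESeq2, with equal nuclei per family and after the subtraction; Nefm was called in 4 of 12 alternatives. The cause was not tested for any of these. Among values of single genes or levels 259 kept their direction and side of the threshold, 12 passed it, 11 lost it, 16 changed sign and 2 moved by more than their error; 121 counts stayed within 1.5 times and 10 did not.

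Over all genes, the 645 calls after hemisection against the uninjured library of experiment 2 became 136 with DESeq2, 1101 without the filter, 2413 with only both groups, 171 and 327 without hemisection 1 and 2, 395 with equal nuclei and 82 after the subtraction. The 22 calls against untraced became 7, 84, 9 and 104 (without untraced 1 and 2), and 9 with equal nuclei. The 42 of traced against untraced became 234 without the filter, 19 without traced 1, 93 without untraced 1 and 0 with equal nuclei. The 32 of regenerating against traced became 185, 88 with only both groups, 0 without traced 1 and 14 with at least 1000 UMIs per neuron. The 299 between references became 67, 615, 529 without untraced 1, 22 with equal nuclei and 10 after the subtraction.

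With the replicate block, 0 filament genes were called for traced over untraced (Nefl 0.18, Nefm 0.16, Nefh -0.55, Ina -0.42, Prph 0.13), as without it. Hemisection and untraced libraries share only a number (correlation 0.105); that block left 0 filament genes called (Nefm -0.79, adjusted p = 0.224, edgeR) and moved the calls over all genes from 22 to 75. Depth limits the regenerating library, with 0 to 8 counts per gene, and Prph in all groups but the uninjured library of experiment 2.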
